A study of Mus musculus with 2 samples.

Results

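The genes described here build the oxidative phosphorylation system, and they were measured in nonparenchymal liver cells of a mouse given PCB126 and of a mouse given vehicle. They were taken by symbol: every gene whose name begins with Ndufa, Ndufb, Ndufc, Ndufs, Ndufv, Sdh, Uqcr, Cox4, Cox5, Cox6, Cox7, Cox8 or Atp5, plus the protein-coding genes of mitochondrial DNA. That gave 110 of the 34244 genes in the deposited tables. Of these, 97 are nuclear genes: 36 for complex I, 4 for complex II, 8 for complex III, 20 for complex IV, 17 for complex V and 12 assembly factors caught by the same prefixes (Ndufaf and Sdhaf). Despite their names, Ndufa4 and Ndufa4l2 are counted with complex IV. The other 13 genes lie in mitochondrial DNA, with 7 for complex I, 1 for complex III, 3 for complex IV and 2 for complex V. The prefix also caught Cox7a2l, which joins complexes III and IV into supercomplexes, and Atp5s and Atp5sl, which carry an Atp5 name without being structural subunits.

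Oxidative phosphorylation takes place in the inner mitochondrial membrane. Complexes I (NADH dehydrogenase) and II (succinate dehydrogenase) pass electrons to ubiquinone, complex III passes them on to cytochrome c, and complex IV (cytochrome c oxidase) hands them to oxygen. Complexes I, III and IV pump protons as they do so, and complex V (ATP synthase) lets the protons back in to make ATP. Most subunits are coded in the nucleus and imported, while the catalytic or membrane-embedded cores of complexes I, III, IV and V include proteins coded in mitochondrial DNA, so the complexes are assembled from transcripts of both genomes. Complex II is coded by nuclear genes alone. In liver, sinusoidal endothelial cells line the capillaries, cholangiocytes line the bile ducts, and neutrophils and dendritic cells belong to the resident or passing immune cells.

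Both mice were C57/BL6 with no allele or transgene named in the labels. The Control mouse received the vehicle, peanut oil, although its treatment label reads "Untreated", and the other mouse received PCB126, a polychlorinated biphenyl that acts like dioxin on the aryl hydrocarbon receptor, at 20 µg/kg/day. Exposure lasted 5 weeks and ended with a 12 hour fast. The protocol also speaks of a single gavage, and the age label, postnatal day 21, is tied to no time point of the study. Hepatocytes and red cells were depleted before loading, so nonparenchymal cells were measured. Each group is 1 mouse and 1 library, so a difference between the mice cannot be told apart from an effect of PCB126, no test between groups was possible, and each interval below covers counting error only.

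Promoters of the nuclear members were read for 3 words bound by factors known for this gene group: NRF1, ETS factors such as GABP, and YY1. RefSeq promoter windows (GRCm38.p6) were found by symbol for 78 of the 97 nuclear members, in 83 windows, and the 250 bases before the start were searched on both strands. The NRF1 word GCATGCGC (reverse complement GCGCATGC) stood in 9 of 83 member windows (10.8%), against 741 of all 32851 windows (2.26%). The ETS word CCGGAAGT (ACTTCCGG) stood in 3 (3.61%) against 945 (2.88%), and the YY1 word AAGATGGC (GCCATCTT) in 1 (1.20%) against 514 (1.56%). A match describes letters and is no proof of a bound site. The stretches below belong to members whose values are described later, are given 5′ to 3′ on the strand of the gene, and hold the match in capitals. A longer run of capitals holds the NRF1 word on both strands, overlapping.
Ndufa6, chr15:82354323-82354422, strand minus: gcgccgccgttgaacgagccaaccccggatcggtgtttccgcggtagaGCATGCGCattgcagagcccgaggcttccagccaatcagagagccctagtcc
Ndufa11, chr17:56717686-56717761, strand plus: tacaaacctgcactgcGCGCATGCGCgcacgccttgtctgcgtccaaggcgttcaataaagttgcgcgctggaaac
Cox6a1, chr5:115349030-115349129, strand minus: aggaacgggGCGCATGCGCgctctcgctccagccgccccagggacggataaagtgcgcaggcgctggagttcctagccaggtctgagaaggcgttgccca
Ndufaf4, chr4:24897925-24898024, strand plus: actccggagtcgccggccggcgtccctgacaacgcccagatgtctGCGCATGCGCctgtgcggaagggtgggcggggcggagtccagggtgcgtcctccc
Uqcr11, chr10:80406834-80406933, strand minus: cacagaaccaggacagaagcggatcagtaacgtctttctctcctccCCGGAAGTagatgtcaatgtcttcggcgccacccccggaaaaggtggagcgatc
Ndufa6 is a small accessory subunit of complex I and Ndufa11 a membrane-arm subunit of it, Cox6a1 is a subunit of complex IV, Ndufaf4 is an assembly factor of complex I, and Uqcr11 is a small subunit of complex III. The Uqcr11 stretch carries the ETS word and the other 4 carry the NRF1 word. The words also occurred for Atp5k, Atp5g2, Atp5h, Atp5j, Ndufa8 and Sdhb within annotated exons, which are not printed, and for Atp5l and Uqcrh.

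The matrices held 8550 Control and 4307 PCB126 barcodes with 24134912 and 16269562 UMIs (unique molecular identifiers, each standing for 1 captured RNA molecule). Cells were kept with at least 500 UMIs, at least 250 genes and at most 20% mitochondrial UMIs, and after doublet removal 1858 Control and 1138 PCB126 cells remained, with a median of 5258.5 and 6567 UMIs. The libraries stood apart in mitochondrial RNA: of the barcodes that passed the other filters, the 20% limit removed 412 of the Control library (17.9%) and 1698 of the PCB126 library (59.6%). The lists shared 3 barcodes, none of them among the cells used. Cells were named by marker genes, and 5 types with at least 50 cells in each library were compared: liver sinusoidal endothelial-like cells (LSEC-like, 232 Control and 553 PCB126 cells), vascular endothelial-like (59 and 87), neutrophil-like (765 and 97), dendritic-like (53 and 153) and cholangiocyte-like (71 and 84). In clusters built without the 110 genes, the libraries lay mostly apart within 4 of these types. Of LSEC-like cells, clusters 4 and 10 held 151 and 56 Control against 7 and 1 PCB126 cells, and clusters 2 and 8 held 361 and 107 PCB126 cells and 0 Control cells. Cluster 10 was named vascular endothelial, as were clusters 9 (0 Control and 24 PCB126 LSEC-like cells) and 14 (5 and 19). The gate and the clusters thus split the endothelial cells differently. Of neutrophil-like cells, cluster 17, led by Fos and Atf3 and given no name of its own, held 57 PCB126 and 6 Control cells, while clusters 1, 3 and 12 held 370, 305 and 73 Control cells. Of vascular endothelial-like cells, cluster 9 held 62 PCB126 and 4 Control cells and cluster 10 held 1 and 30. Of dendritic-like cells, cluster 6 held 91 PCB126 and 12 Control cells and cluster 7 held 62 and 39. The cholangiocyte-like cells of both libraries lay in cluster 5.

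Levels throughout are UMIs per 1000000 nuclear UMIs (written CPM), meaning all UMIs of the cell type less those of mitochondrial genes and of Gm42418, AY036118 and Lars2, which draw rRNA reads. Each UMI stands for 1 transcript end, so a level is not divided by gene length and is compared here between libraries or cell types for the same genes. The markers matched the names unevenly. LSEC-like cells carried all 13 LSEC markers, summed at 22784 CPM in Control and 27082 CPM in PCB126. Vascular endothelial-like cells also carried LSEC markers, with a median of 9 and 7 of 13 detected per cell, and Vwf alone of their own list stood among their 10 leading genes, so this class is the least sharply set. Dendritic-like cells carried all 12 of their markers (28128 and 33425 CPM), but they join Xcr1-led cluster 7 with cluster 6, whose leading genes include the complement genes C1qa, C1qb and C1qc of macrophages beside Cd209a and Ccl17. Values by cluster are therefore given for the nuclear sum, the mitochondrial sum and some members. All other dendritic-like values join the clusters, whose cell numbers differ between the libraries. By the same lists, cholangiocyte-like cells carried all 10 of theirs (21259 and 18814) and neutrophil-like cells all 11 (222178 and 146268).

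The summed level of the 97 nuclear members, read in 10 cell types, differed widely within a library. In the Control library it was lowest in neutrophil-like cells at 6513 CPM (95% Poisson interval 6418 to 6610), followed by LSEC-like cells at 10311, erythroid-like cells at 11054 and vascular endothelial-like cells at 14843. B-like and plasma-like cells stood at 17590 and 17679, with intervals that overlapped. Monocyte-like cells followed at 19920 and dendritic-like cells at 21901, and the highest levels were those of cholangiocyte-like cells at 23392 (23108 to 23678) and of 16 T- and NK-like cells at 23890 (23009 to 24796), whose intervals overlapped. Among types with at least 10 cells in the PCB126 library, neutrophil-like cells were again lowest at 7180 (6900.5 to 7467), LSEC-like cells next at 12577 and cholangiocyte-like cells at 23702 (23451 to 23955). There 11 monocyte-like cells stood at 23656 (22836 to 24498), so these last levels overlapped. Those 11 cells carried dendritic markers at 15505 CPM against 4493 CPM for their own list (758 and 6300 in Control), and 4 of them lay near the edge of the gate, so their name is uncertain.

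**Figure D1:**
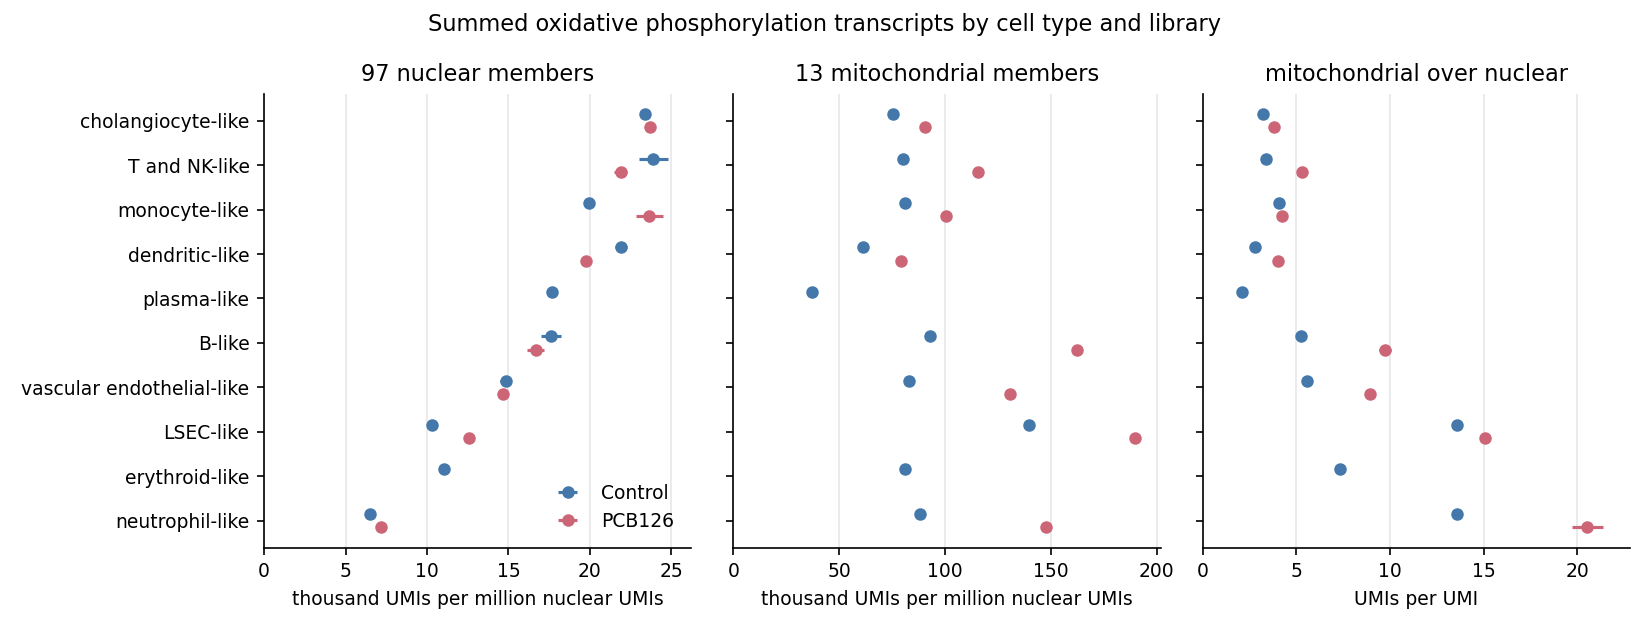
Summed level of the 97 nuclear and the 13 mitochondrial oxidative phosphorylation genes by cell type and library, in CPM, with the ratio of the 2 sums; types with at least 10 cells in a library are drawn and error bars are 95% intervals for counting error. Neutrophil-like cells are lowest for nuclear members in both libraries, at 6513 and 7180 CPM, and mitochondrial levels are higher in the PCB126 library in each of the 5 compared types.

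Comparing the libraries answers how these genes stood in the mouse given PCB126 relative to the mouse given oil. In LSEC-like cells the nuclear members together were 10311 CPM in Control and 12577 in PCB126, a ratio of 1.22 (95% interval 1.19 to 1.25). Neutrophil-like cells gave 6513 and 7180, so PCB126 was 1.10 times Control (1.06 to 1.15). Lower in PCB126 were dendritic-like cells, at 21901 and 19758, a ratio of 0.902 (0.885 to 0.919). By cluster the ratio was 0.911 (0.878 to 0.946) in cluster 6 and 0.890 (0.869 to 0.911) in cluster 7. Vascular endothelial-like cells (14843 and 14655, ratio 0.987, 0.957 to 1.02) and cholangiocyte-like cells (23392 and 23702, ratio 1.01, 0.997 to 1.03) had intervals that include 1. Whether these ratios differ between cell types was not tested.

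Gene by gene, LSEC-like cells held 79 nuclear members with at least 100 UMIs over both libraries, and 65 of them were higher in PCB126. Their median log2 ratio was 0.32, against -0.01 over all 5694 genes with as many UMIs. Past 1.5-fold, 14 members were higher and 0 lower, where 7.52% of all genes were higher and 6.94% lower (14.5% in either direction). The higher count was 24 of 70 members with types taken from clusters, 22 of 75 under a stricter gate and 6 of 20 with cells thinned to 1000 UMIs. It was 8 of 60 (with 2 lower) at a mitochondrial limit of 10%, 9 of 81 at 50% and 10 of 81 with no limit. The shares of all genes are for the main setting only, so these alternative counts have no background of their own beside them. In dendritic-like cells 20 of 76 members were higher, with a median of -0.14 against 0.05 over all genes. Past the fold there, 0 members were higher and 5 lower, against 12.7% and 7.07% of all genes (19.8% either way).

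The other types lay near their backgrounds. Neutrophil-like cells had 9 members higher and 2 lower of 52, against 18.8% and 10.5% of all genes (29.3% either way), and medians of 0.16 and 0.15 for members and all genes. Vascular endothelial-like cells had 3 higher and 3 lower of 59, against 7.03% and 8.37% (15.4%), with medians of 0.00 for both. Cholangiocyte-like cells had 2 higher and 3 lower of 80, against 4.86% and 3.06% (7.93%), with medians of 0.10 for both.

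**Figure D2:**
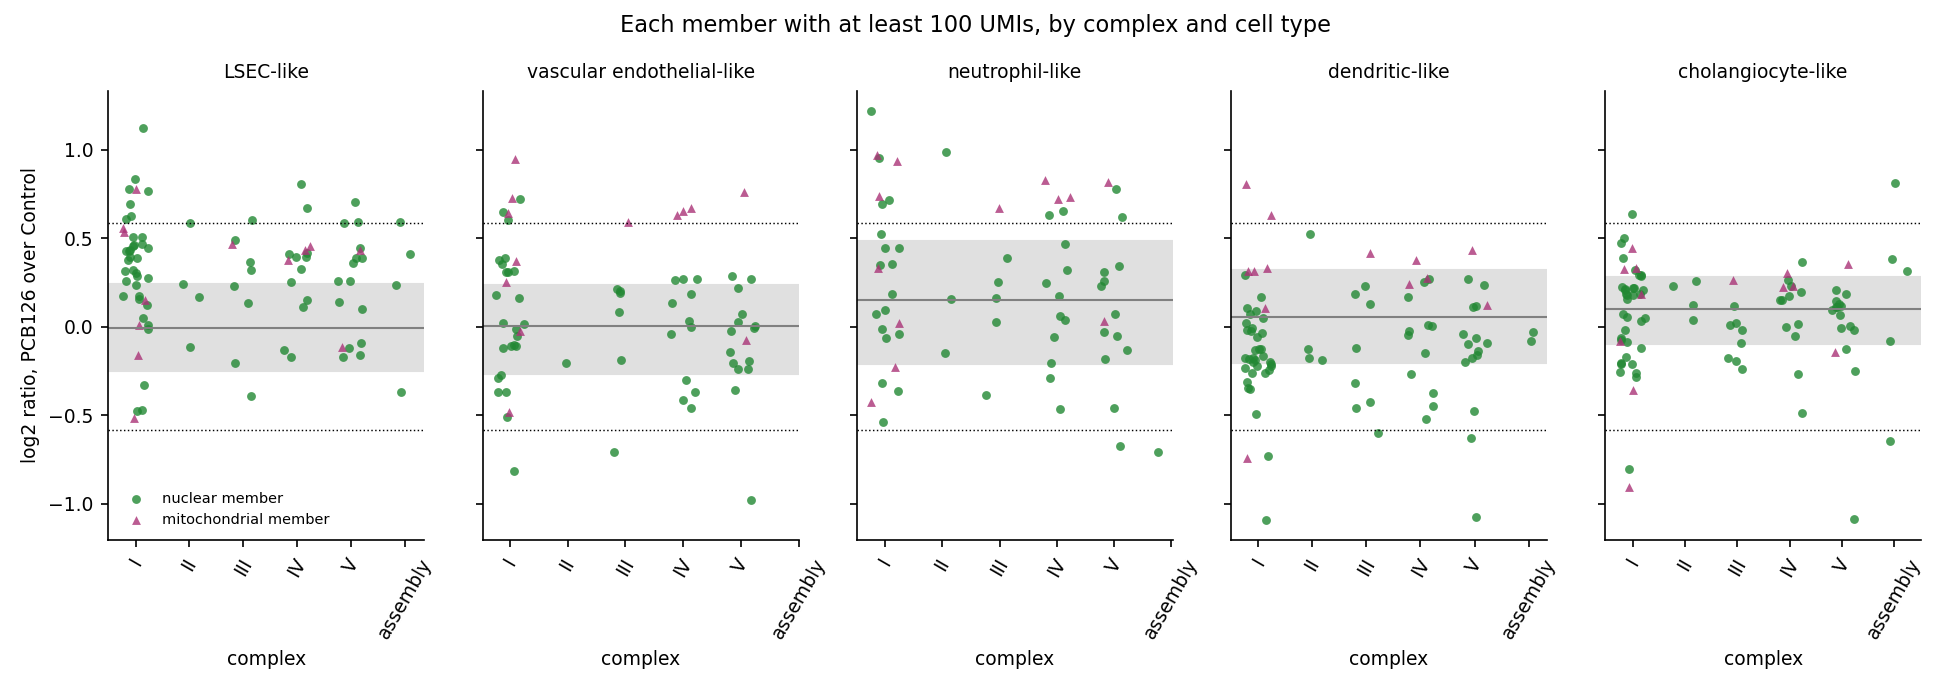
Log2 ratio of the level in PCB126 over Control for each member with at least 100 UMIs, by cell type and by complex; each circle is 1 nuclear gene and each triangle 1 mitochondrial gene, the grey band spans the interquartile range of all genes with as many UMIs, the grey line is their median and the dotted lines mark 1.5-fold. In LSEC-like cells 65 of 79 circles lie above 0, and in dendritic-like cells 20 of 76.

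Several measures moved with these results. Neutrophil markers alone made up 222178 CPM in Control neutrophil-like cells and 146268 in PCB126, which changes the room left for every other gene on this scale. Erythroid markers, a sign of free or engulfed red cell RNA, summed to 3264 CPM in Control LSEC-like cells (7 of 7 detected) and 837 in PCB126 (5 of 7), to 560 and 28.9 in dendritic-like, 3512 and 559 in neutrophil-like, 769 and 89.9 in vascular endothelial-like and 4460 and 65.4 in cholangiocyte-like cells. Hepatocyte markers in LSEC-like cells summed to 598 and 217, and the vascular endothelial list there to 6910 and 4288. Dendritic markers in cholangiocyte-like cells were at 133 and 1107. Free RNA, estimated from haemoglobin, came to between 0.0120% and 0.705% of the UMIs of each type. Within LSEC-like cluster 18, which both libraries filled (20 and 32 cells), the nuclear ratio was 1.08 (0.925 to 1.26), an interval that includes both 1 and the pooled 1.22. The part of these values in the results was not tested.

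Complex I takes electrons from NADH and has the most members. Its 36 nuclear genes summed to 3247 Control and 4104 PCB126 CPM in LSEC-like cells, a ratio of 1.26 (1.22 to 1.31). Of these, 32 of 36 were higher and 7 were higher past the fold, against 49.2% and 7.52% of all genes there. In dendritic-like cells the complex I genes summed to 5968 and 5153, a ratio of 0.864 (0.833 to 0.896). There 7 of 35 were higher, against 55.1% of all genes. Past the fold 2 of 35 were lower, near the 7.07% of all genes. The ratio was 1.15 (1.06 to 1.24) in neutrophil-like cells. Vascular endothelial-like and cholangiocyte-like cells gave 1.02 and 1.03, with intervals reaching below 1.

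In LSEC-like cells Ndufb10, a subunit of the membrane arm, had 70 Control and 334 PCB126 UMIs, at 64.7 and 142 CPM, a ratio of 2.19 (1.69 to 2.88). Ndufb9, another membrane-arm subunit, stood at 73.9 and 132 (1.79, 1.40 to 2.32). Ndufa12 stood at 44.3 and 76.0 (1.71, 1.24 to 2.41), Ndufs3, a core subunit of the matrix arm, at 36.0 and 62.4 (1.73, 1.21 to 2.53), and Ndufb11 at 101 and 164 (1.62, 1.31 to 2.03). Ndufab1, the mitochondrial acyl carrier protein, and Ndufa11 passed the fold as well, at ratios of 1.55 and 1.53. The higher members thus span both arms of the complex. On the other side Ndufs1, the largest iron-sulfur subunit of the matrix arm, was at 61.0 and 44.2 (0.724, 0.527 to 1.00), short of the fold.

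Outside LSEC-like cells the complex I members that led were in part others, while Ndufab1, Ndufa12 and Ndufb9 recurred. Ndufa3, a short accessory subunit, was lower in PCB126 in all 5 types: 395 and 185 CPM in dendritic-like cells (0.469, 0.400 to 0.551), 304 and 174 in cholangiocyte-like (0.572, 0.484 to 0.676), 182 and 103 in vascular endothelial-like (0.567, 0.404 to 0.790), 209 and 161 in neutrophil-like (0.771) and 148 and 118 in LSEC-like cells (0.796). Ndufa6 was at 462 and 278 in dendritic-like cells (0.602, 0.523 to 0.693) but at 227 and 278 in LSEC-like cells (1.22, 1.05 to 1.42). Ndufa8 was higher in PCB126 in all 5 types and past the fold in vascular endothelial-like cells, at 272 and 414 (1.52, 1.23 to 1.89). There Ndufab1 (85.9 and 142, ratio 1.66) and Ndufa12 (79.9 and 126, ratio 1.58) also passed it. In cholangiocyte-like cells Ndufs4, an accessory subunit of the matrix arm, stood at 103 and 160 (1.56, 1.24 to 1.97), and Ndufb9 at 310 and 440 (1.42). In neutrophil-like cells Ndufb8, with 79 and 23 UMIs, stood at 28.9 and 66.2 (2.29, 1.38 to 3.69) and Ndufs6 at 31.8 and 60.5 (1.90, 1.12 to 3.09). The neutrophil-like values rest on few PCB126 UMIs, as their wide intervals show.

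Complex II oxidises succinate. Its 4 genes summed to 267 and 305 CPM in LSEC-like cells, a ratio of 1.14 whose interval, 0.995 to 1.31, includes 1. The summed ratio was 1.00 in vascular endothelial-like, 1.20 in neutrophil-like, 1.02 in dendritic-like and 1.12 in cholangiocyte-like cells, each with an interval that includes 1. Sdha, the flavoprotein that holds the catalytic site, was at 122 and 144 in LSEC-like cells (1.18, 0.966 to 1.46) and at 82.9 and 73.7 in dendritic-like cells (0.889). Sdhd, a membrane anchor, was at 71.2 and 103 in dendritic-like cells (1.45, 1.05 to 2.02). Its ratio in dendritic-like cluster 7 was 1.35 (0.934 to 1.97), and over the alternatives run its log2 ratio of 0.52 ranged from -0.28 to 0.75. In neutrophil-like cells Sdhd, with 81 and 20 UMIs, was at 29.6 and 57.6 (1.95, 1.13 to 3.20), but its log2 ratio of 0.99 turned to -0.40 with cells thinned to 1000 UMIs and to -0.078 within clusters that both libraries shared.

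Complex III has 8 nuclear members, at a summed ratio of 1.23 (1.15 to 1.31) in LSEC-like cells and 0.931 (0.878 to 0.989) in dendritic-like cells. Uqcrb, a small matrix-side subunit, stood at 169 and 257 in LSEC-like cells (1.52, 1.29 to 1.80). Uqcrc2, a core protein of the complex, stood at 113 and 86.2 there (0.765, 0.608 to 0.965). Uqcr11 was lower past the fold in vascular endothelial-like cells, at 254 and 155 (0.612, 0.464 to 0.805), and in dendritic-like cells, at 269 and 177 (0.659, 0.550 to 0.792), whereas it was at 142 and 167 in LSEC-like cells (1.17). Uqcrh, the hinge protein near the cytochrome c site, drew the most UMIs of the complex (9574 over all cells) and was at 609 and 693 in dendritic-like cells (1.14, 1.02 to 1.27) and 351 and 439 in LSEC-like cells (1.25, 1.11 to 1.41).

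Ndufa4 and Ndufa4l2 are counted here with complex IV and not with complex I. Complex IV thus holds 20 nuclear members, of which 12 had at least 100 UMIs in each compared type. Their summed ratio was 1.19 (1.14 to 1.24) in LSEC-like, 1.14 (1.06 to 1.23) in neutrophil-like and 0.934 (0.902 to 0.967) in dendritic-like cells. Cox4i1, the member with the most UMIs of all nuclear members (14812), was at 406 and 543 in LSEC-like cells (1.34, 1.20 to 1.49) and at 1007 and 1183 in cholangiocyte-like cells (1.18, 1.09 to 1.27). In dendritic-like cells it was at 1010 and 978 (0.968, 0.887 to 1.06). Cox7a2, the widely expressed form of subunit VIIa, was at 139 and 243 in LSEC-like cells (1.75, 1.46 to 2.11) and at 374 and 311 in dendritic-like cells (0.833, 0.719 to 0.968), opposite directions whose difference was not tested. By dendritic-like cluster the Cox7a2 ratio was 0.740 (0.560 to 0.991) in cluster 6 and 0.914 (0.756 to 1.11) in cluster 7. Cox5b, a zinc-binding subunit on the matrix side, was at 125 and 199 in LSEC-like cells (1.59, 1.31 to 1.94), a log2 ratio of 0.67. Within cluster 18, the 1 LSEC-like cluster compared as shared (20 Control and 32 PCB126 cells), it was -0.085, a value that can rest on few UMIs.

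Cox6c and Cox7c, small membrane subunits, were lower in PCB126 in all 5 types. Cox7c was at 984 and 701 in cholangiocyte-like cells (0.712, 0.653 to 0.776) and 938 and 687 in dendritic-like cells (0.732, 0.666 to 0.806), and nearer to 1 in LSEC-like cells at 418 and 371 (0.888, 0.792 to 0.997). Cox6c was at 712 and 497 in dendritic-like cells (0.698, 0.625 to 0.780). Cox8a, a small subunit, was higher in all 5 types, with 426 and 588 in neutrophil-like (1.38, 1.18 to 1.60), 207 and 276 in LSEC-like (1.33, 1.14 to 1.56) and 644 and 767 in dendritic-like cells (1.19, 1.07 to 1.33). Cox7a2l, the supercomplex factor, was at 149 and 233 in neutrophil-like cells (1.56, 1.22 to 1.99), a log2 ratio of 0.65 that was -0.10 when the type was taken from clusters in place of the marker gate.

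Complex V makes ATP. Its 17 nuclear members had a summed ratio of 1.21 (1.16 to 1.26) in LSEC-like and 0.887 (0.857 to 0.918) in dendritic-like cells. In LSEC-like cells Atp5h, subunit d of the peripheral stalk, was at 255 and 416 (1.63, 1.43 to 1.87), Atp5j, coupling factor F6 of the same stalk, at 176 and 266 (1.51, 1.28 to 1.78) and Atp5j2, membrane subunit f, at 134 and 203 (1.51, 1.25 to 1.83). The catalytic-head subunits had smaller ratios there: Atp5a1, alpha, stood at 240 and 288 (1.20, 1.04 to 1.39) and Atp5b, beta, at 205 and 220 (1.07, 0.915 to 1.26).

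Atp5k, subunit e, which sits where ATP synthase dimers meet, was the member furthest below 1 in cholangiocyte-like cells at 380 and 179 CPM (0.471, 0.402 to 0.552) and in vascular endothelial-like cells at 230 and 116 (0.505, 0.371 to 0.685). In dendritic-like cells it was at 426 and 202 (0.475, 0.408 to 0.555). Within that type Atp5k was at 377 and 212 in cluster 6 (0.562, 0.416 to 0.772) and at 426 and 193 in cluster 7 (0.453, 0.371 to 0.554), and Ndufa3 had ratios of 0.597 (0.433 to 0.838) and 0.410 (0.333 to 0.504) in those clusters. Over the whole type Atp5j2 was at 446 and 289 (0.646, 0.561 to 0.745). Its ratio was 0.785 (0.593 to 1.06) in cluster 6 and 0.578 (0.481 to 0.694) in cluster 7. Atp5k was at 121 and 86.4 in neutrophil-like (0.716, 0.476 to 1.04) and 168 and 149 in LSEC-like cells (0.889, 0.741 to 1.07), with intervals that include 1. Atp5e, the epsilon subunit, was at 1034 and 744 in dendritic-like cells (0.720, 0.658 to 0.789) and at 163 and 195 in LSEC-like cells (1.20, 1.01 to 1.43).

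Assembly factors were sparse: 4 of 12 passed the UMI minimum in LSEC-like cells and 5 in cholangiocyte-like cells. Ndufaf4 was at 32.3 and 49.3 in LSEC-like cells (1.52, 1.04 to 2.29). In cholangiocyte-like cells Ndufaf3, a complex I factor, was at 27.9 and 49.4 (1.77, 1.15 to 2.80) and Ndufaf2, also of complex I, at 56.7 and 36.2 (0.639, 0.434 to 0.937), so both directions occurred. Their summed ratio was 1.18 (1.01 to 1.38) in LSEC-like cells and had an interval including 1 in the other types. Ndufaf8, the factor with the most UMIs (786), was at 24.9 and 33.6 in LSEC-like cells (1.34, 0.859 to 2.17).

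Of the 46 nuclear members measured in all 5 types, 7 were above 0 on the log2 scale in each (Atp5h, Cox5a, Cox7a2l, Cox8a, Ndufa8, Ndufb8 and Ndufs7) and 4 were below 0 in each (Atp5k, Cox6c, Cox7c and Ndufa3). The types share their 2 libraries, so these are not 5 separate observations. The same count was not made over all genes, so whether these 2 sets are larger than among all genes cannot be told. In single types, between 49.2% (LSEC-like) and 63.6% (cholangiocyte-like) of all genes were above 0. Over the alternatives run, 13 of the 35 ratios of the first set and 6 of the 20 of the second changed side in at least 1, and Atp5k alone kept its side in all 5 types. In LSEC-like cells within shared clusters, for example, Cox8a gave -1.06, Ndufb8 -0.45 and Ndufs7 -2.16. Of 45 named ratios past the fold, 13 stayed past it under every alternative run: Ndufb10 in LSEC-like cells, Atp5k in vascular endothelial-like, dendritic-like and cholangiocyte-like cells, Ndufa3 in the first 2 of these, Ndufa6 in dendritic-like, Ndufab1 in vascular endothelial-like, Ndufaf3 in cholangiocyte-like and Ndufb8 and Ndufs6 in neutrophil-like cells, and mt-Nd3 in dendritic-like and cholangiocyte-like cells. The 4 lower members include short transcripts, at 371 nt for Atp5k, 515 nt for Ndufa3, 540 nt for Cox7c and 738 nt for Cox6c in the GENCODE M21 annotation. Other genes of 500 to 600 nt had a median log2 ratio of -0.15 in dendritic-like (32 genes), -0.058 in cholangiocyte-like (32), -0.13 in neutrophil-like (26) and 0.18 in LSEC-like cells (29). Those of 600 to 800 nt, the range of Cox6c, had medians of 0.029, 0.15, 0.18 and 0.34 in the same order. Members of at most 600 nt had a median of -0.22 in dendritic-like and -0.13 in cholangiocyte-like cells, beside -0.21 and -0.15 for other genes of that length. Members over 600 nt had medians of -0.12 and 0.13, beside 0.06 and 0.11 for other genes. In LSEC-like cells the members' medians were 0.30 and 0.37 below and above that length, beside 0.09 and -0.01. The part of transcript length in the results was not tested.

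**Figure D3:**
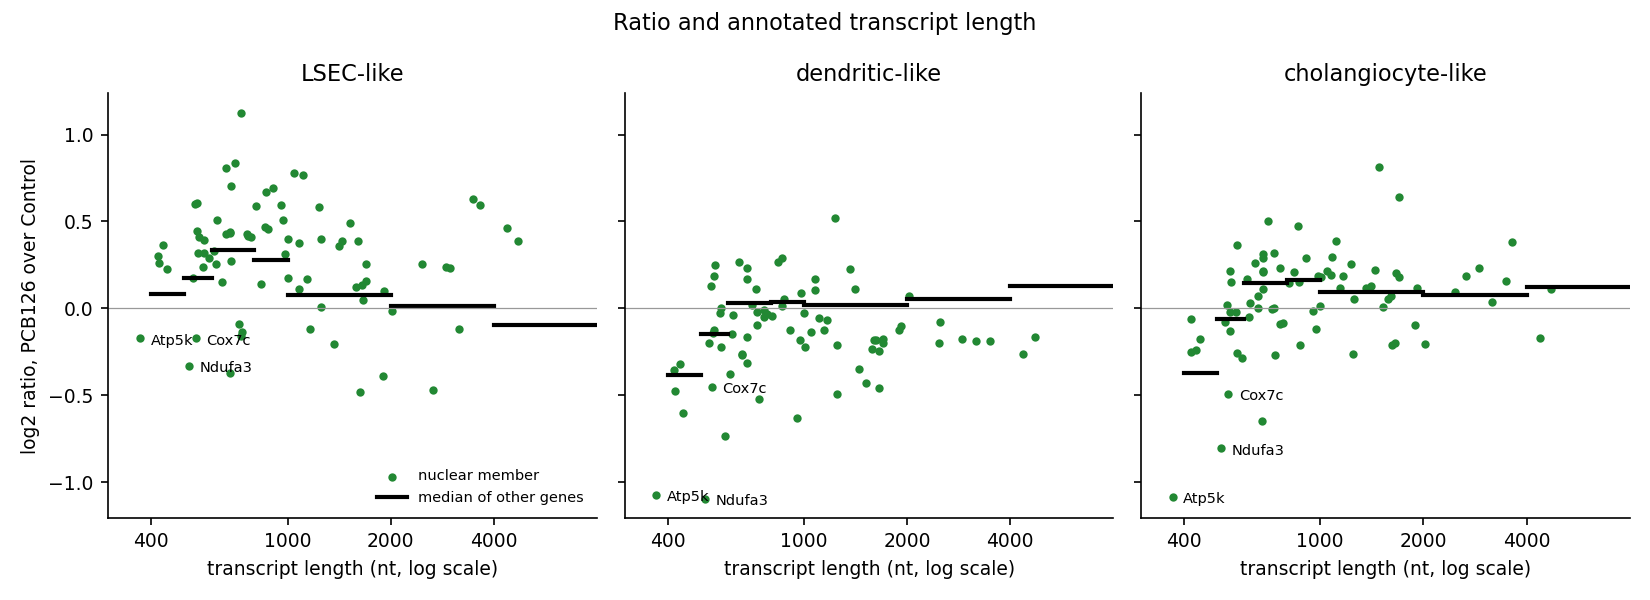
Log2 ratio of PCB126 over Control against transcript length in nt (log axis) for nuclear members in LSEC-like, dendritic-like and cholangiocyte-like cells; each point is 1 gene and black bars are the median of all other genes in a length range. In LSEC-like cells nuclear members of at most and over 600 nt have medians of 0.30 and 0.37, while in dendritic-like cells they lie at -0.22 and -0.12.

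The 13 mitochondrial genes together were higher in the PCB126 library in every compared type. LSEC-like cells had 139943 Control and 189688 PCB126 CPM, a ratio of 1.36 (1.35 to 1.36). The ratio was 1.57 (1.55 to 1.59) in vascular endothelial-like cells (83120 and 130650) and 1.67 (1.65 to 1.69) in neutrophil-like cells (88355 and 147507). It was 1.29 (1.28 to 1.30) in dendritic-like cells (61448 and 79266) and 1.20 (1.19 to 1.21) in cholangiocyte-like cells (75405 and 90406). The cell filter itself limits these genes, and it cut the libraries unequally: of LSEC-like cells with no limit, the 20% limit kept 65.4% in Control and 29.3% in PCB126, and of cholangiocyte-like cells 100% and 85.7%. With no limit LSEC-like levels were 186948 and 410129, a log2 ratio of 1.13, where it was 0.44 at 20% and 0.09 at a limit of 10%. The direction was the same at each limit, and at the 20% limit the value was 0.22 with types taken from clusters and 0.13 within shared clusters. In dendritic-like cells the limit moved it less (0.39 at 10%, 0.43 with none) than the types did, with 0.10 when taken from clusters, and at the 20% limit the mitochondrial ratio was 1.62 (1.58 to 1.65) in cluster 6 and 1.09 (1.08 to 1.11) in cluster 7.

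Single mitochondrial genes differed from their sum. In LSEC-like cells mt-Nd2, a membrane subunit of complex I, was at 10819 and 18592 CPM (log2 ratio 0.78), mt-Cytb of complex III had a log2 ratio of 0.47, mt-Co1, the catalytic core of complex IV, 0.43 and mt-Atp6, the proton channel subunit of complex V, 0.43. By contrast mt-Nd3, which codes a small complex I subunit, was at 4029 Control and 2814 PCB126 in LSEC-like cells (0.698), 2590 and 1857 in vascular endothelial-like (0.717), 2598 and 1932 in neutrophil-like (0.744), 1804 and 1080 in dendritic-like (0.599) and 1863 and 993 in cholangiocyte-like cells (0.533). It was lower in PCB126 in all 5 types while the sum of the 13 was higher. With no mitochondrial limit its log2 ratio was 0.096 in LSEC-like and 0.0057 in neutrophil-like cells, so this direction does not hold there without the limit.

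As a share of the mitochondrial UMIs, mt-Nd3 made up 2.88% in Control and 1.48% in PCB126 in LSEC-like cells, and its share ratio lay between 0.444 and 0.515 over the 5 types. With no mitochondrial limit that ratio lay between 0.442 and 0.487, so the lower share was present without the limit too. mt-Nd2 had share ratios from 1.14 to 1.36. The other short transcripts, mt-Atp8 (204 nt) and mt-Nd4l (297 nt), had log2 level ratios in LSEC-like cells of -0.12 and 0.01, and in cholangiocyte-like cells of -0.15 and -0.36. In the same types mt-Nd6 (519 nt) had -0.16 and 0.19 and the longest gene, mt-Nd5 (1824 nt), 0.15 and -0.081. Over the 13 genes the Spearman correlation of log2 ratio with length (204 to 1824 nt) was 0.57 in LSEC-like, 0.52 in vascular endothelial-like, 0.54 in neutrophil-like, 0.67 in dendritic-like and 0.52 in cholangiocyte-like cells. These genes share each library and, apart from mt-Nd6 on the other strand, are cut from shared precursor transcripts, so they are not independent points. mt-Atp8 overlaps mt-Atp6 and mt-Nd4l overlaps mt-Nd4 in mitochondrial DNA, so UMIs of each such pair are not cleanly separable. The lengths are those of annotated genes, which for these overlapping pairs need not be transcript lengths.

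**Figure D4:**
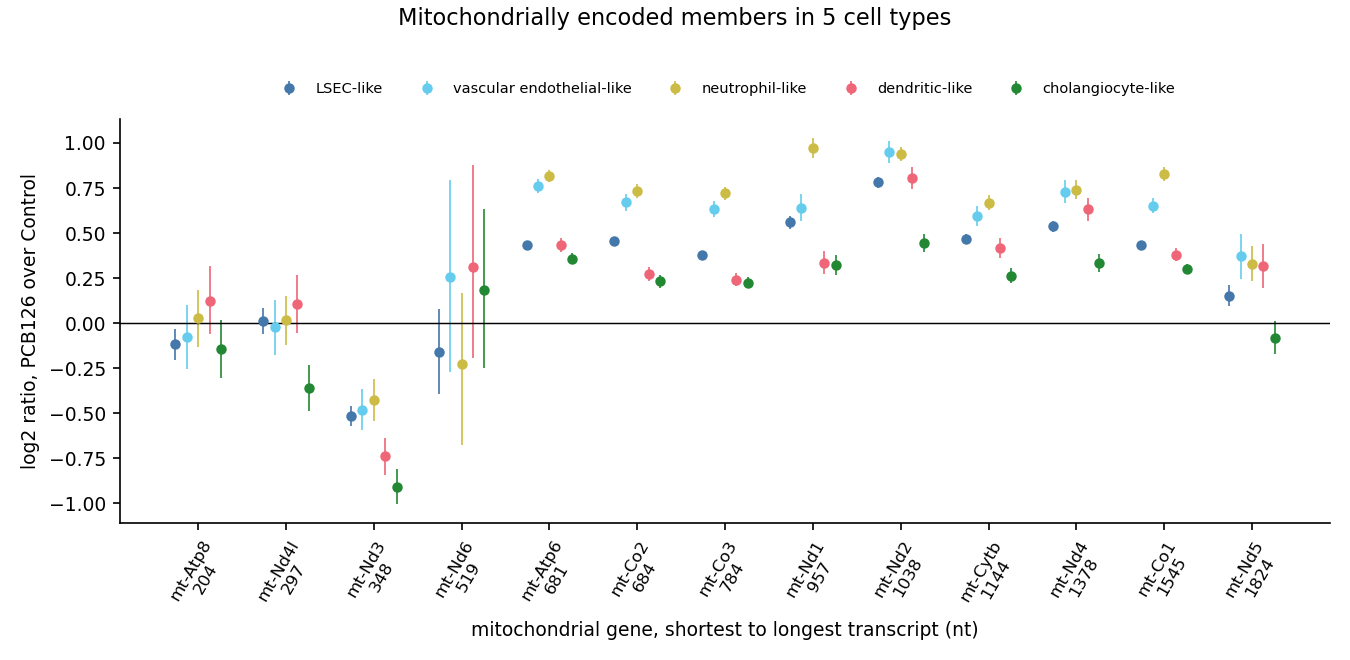
Log2 ratio of PCB126 over Control for the 13 mitochondrial protein-coding genes in the 5 compared cell types, ordered by gene length, with 95% intervals for counting error. mt-Nd3 lies below 0 in each type (-0.52 in LSEC-like, -0.91 in cholangiocyte-like cells) and mt-Nd2 above 0 in each (0.78 and 0.45).

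The balance of the genomes, mitochondrial over nuclear member UMIs, needs no outside scale. In Control it was 13.6 in both LSEC-like and neutrophil-like cells, 5.60 in vascular endothelial-like, 3.22 in cholangiocyte-like, 2.81 in dendritic-like and 2.11 in plasma-like cells, the lowest of the 10 types read. In PCB126 it was 15.1 in LSEC-like cells (ratio 1.11, 1.09 to 1.14), 20.5 in neutrophil-like (1.51, 1.45 to 1.58), 8.91 in vascular endothelial-like (1.59, 1.54 to 1.65), 4.01 in dendritic-like (1.43, 1.40 to 1.46) and 3.81 in cholangiocyte-like cells (1.18, 1.16 to 1.20). All 5 lay above 1, but the LSEC-like balance changed direction with the processing: its log2 ratio of 0.15 was -0.21 at a 10% limit and -0.24 with types taken from clusters, and 0.89 with no limit.

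LSEC-like cells were further read in ranges of mitochondrial share with no limit applied. Among cells of 5 to 10% (95 Control and 84 PCB126 cells) the nuclear members were at 11152 and 13941 CPM, a ratio of 1.25 (1.21 to 1.29). At 10 to 15% (90 and 214 cells) they were at 8665 and 12638 (1.46, 1.40 to 1.52), and at 15 to 20% (43 and 255) at 8605 and 11608 (1.35, 1.25 to 1.46). Above the limit the levels met: 9813 and 10476 at 20 to 30% (1.07, 0.987 to 1.16) and 13876 and 12888 at 30 to 50% (0.929, 0.840 to 1.03), where both intervals include 1. Depth differed as well, with a median of 1541 Control and 3053 PCB126 nuclear UMIs per cell at 15 to 20%. The higher nuclear level of LSEC-like cells in PCB126 thus held in the 3 ranges under the limit and not above it, and the part of depth was not tested.

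**Figure D5:**
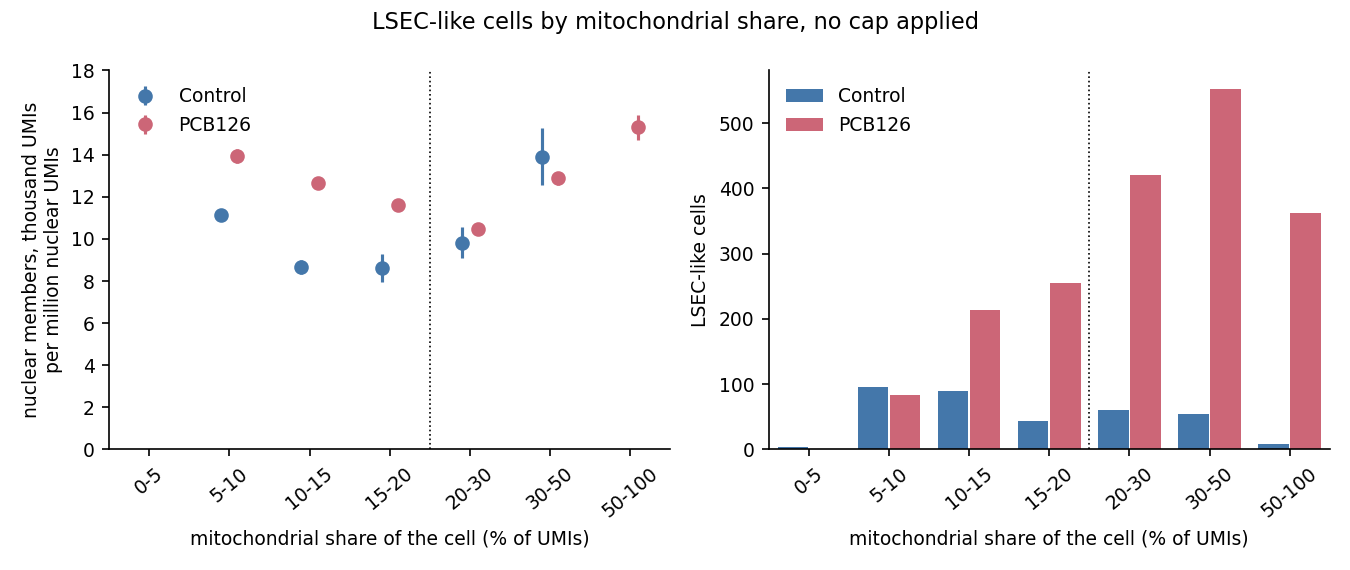
LSEC-like cells by percent of UMIs that are mitochondrial, without a limit on it: summed nuclear member level in CPM with 95% Poisson intervals, and the number of cells, for ranges with at least 20 cells; the dotted line is the 20% limit. PCB126 lies above Control from 5 to 20% (11152 against 13941 in the lowest range drawn for both) and meets it above the limit.

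Several complex IV subunits come in tissue forms, and the liver or ubiquitous forms carried nearly all UMIs. Over all cells of Control and PCB126, Cox4i1 had 8197 and 6615 UMIs against 14 and 6 for Cox4i2, the hypoxia- and lung-associated form. Cox6a1 had 2815 and 2268 against 9 and 3 for the muscle form Cox6a2. Cox8a had 5684 and 4497 where Cox8b and Cox8c had 0 in both libraries, and Ndufa4 had 3422 and 3270 against 8 and 1 for Ndufa4l2. Cox4i2 had 0 UMIs in 232 Control and 553 PCB126 LSEC-like cells, which by the limit of 3 counts allows a share of cells with a UMI of up to 1.29% and 0.542%.

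The minor forms were not spread evenly over the cell types. In 3 Control and 1 PCB126 stellate- and fibroblast-like cells lay 7 of 8 and the only UMI of Ndufa4l2. The same cells held 4 of 14 and 3 of 6 UMIs of Cox4i2, with 6 more in Control plasma-like cells. Among the compared types, the heart and muscle form Cox7a1 and the testis form Cox6b2 were found most often in cholangiocyte-like cells. Of 49 Control and 37 PCB126 UMIs of Cox7a1, 44 and 35 lay in cholangiocyte-like cells, in 22 of 71 cells (31.0%) and 16 of 84 cells (19.0%), whose median depths were 10729 and 15527.5 UMIs. Dendritic-like cells, at 15027 and 14021 UMIs per cell, had it in 0 of 53 and 0 of 153 cells. Cox6b2 was found in 18 of 71 and 25 of 84 cholangiocyte-like cells, and in 3 of 53 and 23 of 153 dendritic-like cells. In cholangiocyte-like cells the level of Cox7a1 was 39.6 CPM in Control and 24.4 in PCB126, from too few UMIs for the 100 UMI minimum.

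Other mitochondrial gene lists were read beside the members in LSEC-like cells, under the same UMI minimum. Of all genes in this type, 49.2% were above 0, and past the fold 7.52% were higher and 6.94% lower. Electron and nucleotide carriers had 4 of 7 measured genes higher past the fold: Cycs, cytochrome c, at 51.7 and 99.4 (1.92), Etfb, an electron-transfer flavoprotein subunit, at 39.7 and 85.4 (2.15), Cyc1, the cytochrome c1 subunit of complex III that the naming rule misses, at a ratio of 1.56, and Slc25a5, an ADP/ATP carrier, at 85.0 and 131 (1.54). The other 3 were below 1, namely Slc25a3, the phosphate carrier, at a ratio of 0.796 (0.695 to 0.913), Etfa at 0.815 and Slc25a4, another ADP/ATP carrier, at 0.859. Of mitochondrial ribosomal proteins, 42 of 78 were measured, 13 higher and 1 lower past the fold, with a median of 0.25. Import genes had 8 of 10 above 0 and 3 higher past the fold (Tomm5, Tomm40 and Timm13, ratios 1.87, 1.84 and 1.78). Tricarboxylic acid cycle genes had 5 of 11 above 0, with 0 higher and 2 lower past the fold: Cs, citrate synthase, at 97.9 and 60.7 (0.620) and Suclg2, of succinyl-CoA synthetase, at 0.581. Among genes that transcribe or copy mitochondrial DNA 3 of 6 were above 0, 0 were higher past the fold and Tfb2m, a mitochondrial transcription factor, was lower at 42.5 and 25.1 (0.590).

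In dendritic-like cells the ribosomal list ran the other way, with 10 of 42 measured genes above 0 and a median of -0.11. Past the fold 0 were higher and 4 lower. Of all genes there, 55.1% were above 0, with a median of 0.05, and 12.7% were higher and 7.07% lower past the fold. Cholangiocyte-like cells had 43 of 63 above 0, with a median of 0.15 and 0 past the fold in either direction. The share above 0 was near that of all genes there, 63.6%, whose median was 0.10. Past the fold lay 7.93% of all genes. The regulator list was thinly measured. Hif1a, the hypoxia factor, was at 36.3 and 107 in dendritic-like cells (2.93, 1.93 to 4.64) and at ratios of 0.564 in neutrophil-like, 0.552 in vascular endothelial-like and 0.685 in LSEC-like cells. Yy1, a transcription factor, was at 105 and 207 in neutrophil-like cells (1.97, 1.5 to 2.56). Esrra, estrogen-related receptor alpha, had a ratio of 1.58 in LSEC-like cells, with an interval of 0.982 to 2.63 that includes 1. Among stress and uncoupling genes of LSEC-like cells, Ddit3, a stress-induced transcription factor, was at 20.3 and 51.0 (2.51) and Ucp2, an inner-membrane carrier, at 140 and 232 (1.65).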

How the data were processed

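Raw UMI counts of every gene in every barcode were deposited for both libraries, unnormalized, and the accompanying deposited lists of genes and barcodes hold other content, identifiers only. The matrices come from Cell Ranger 6.0.0 per the file headers, whereas version 6.1.1 and Seurat 4.0.1 stand in the submitters' processing notes. The build used for counting was not given in the sources used here. GENCODE M21 (GRCm38) holds 34132 of the 34244 identifiers and all 110 members.

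Barcodes with under 500 UMIs, under 250 genes or over 20% mitochondrial UMIs were left out, as were 28 Control and 11 PCB126 cells with the highest Scrublet doublet scores (0.8% per 1000 cells, set as a rate because its own threshold called 8 and 3). Each cell took the type whose fixed markers scored highest, with at least 3 markers detected. The score (mean marker level, each scaled to its 90th percentile) was chosen after the data were seen. Within 1.1 times of a second type lay 18 and 14 LSEC-like, 11 and 15 vascular endothelial-like, 13 and 0 neutrophil-like, 3 and 3 dendritic-like and 0 and 0 cholangiocyte-like cells. Counts were summed per type and library. Ratios carry exact conditional binomial intervals, levels Poisson intervals, shares of cells Clopper-Pearson intervals (0 counts: the share that 3 counts would give) and balances a log-scale normal interval from the counts, all at 95%. Log2 ratios used a pseudocount of 0.5. Genes named were the 5 members with the largest lower bound and the 5 with the smallest upper bound per type, all mitochondrial members, isoform pairs and the member with most UMIs per complex; Atp5a1, Atp5b, Sdhd in other types, Uqcrb, Uqcr11 and the remaining members past the fold were named after their values were seen. The members and lists were chosen with earlier results of these data known. Scripts were tested on simulated counts. Tools were Python 3.11.15, numpy 2.4.6, scipy 1.17.1, pandas 2.3.3, scanpy 1.11.5, leidenalg 0.10.2 and matplotlib 3.10.9. Ribosomal RNA genes of mitochondrial DNA were not analysed here. For 1 gene that the naming rule selects, values are not reported here.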

Additional observations from a re-analysis of the deposited data

Results flagged for a closer look

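The summed level of the nuclear members pointed in opposite directions in different cell types of the same 2 libraries. The ratio of PCB126 over Control was 1.22 in LSEC-like cells and 1.10 in neutrophil-like cells, both with intervals above 1, and 0.902 in dendritic-like cells, with an interval below 1. In neutrophil-like cells the median log2 ratio of the members, 0.16, was near the 0.15 of all genes, so the value there was not particular to these genes. The medians were 0.32 against -0.01 in LSEC-like and -0.14 against 0.05 in dendritic-like cells. With 1 mouse per group the difference between cell types was not tested.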

How the results depend on the processing

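Each group is 1 library, so no replicate could be left out and no spread between mice is known; depth limits single members, of which 52 to 80 of 97 reached 100 UMIs in a type. No paired analysis was possible because each group holds 1 library. Of 184 named ratios, 71 changed direction under some alternative, 68 of them not past the fold, so a direction given for a single such member can depend on the processing. Of the 45 past the fold, 3 changed direction: Sdhd (thinned -0.40, shared clusters -0.078) and Cox7a2l (cluster types -0.10) in neutrophil-like cells and Cox5b in LSEC-like cells (shared clusters -0.085). Of the 45, 13 stayed past the fold throughout. For LSEC-like cells the shared clusters are cluster 18 alone (20 Control and 32 PCB126 cells), so a change of direction of a single gene there can rest on few UMIs. Values below are log2 ratios, or counts of members past the fold, and for those that moved the cause was not tested unless given. Orders follow LSEC-like, vascular endothelial-like, neutrophil-like, dendritic-like and cholangiocyte-like cells.

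For the nuclear sum, main values were 0.29, -0.02, 0.14, -0.15 and 0.02. With types from clusters, LSEC-like cells gave 0.46, vascular endothelial-like 0.075 and neutrophil-like 0.21. A 10% limit gave -0.19 in dendritic-like and 0.20 in neutrophil-like cells. LSEC-like cells gave 0.23 at 50%, 0.24 with no limit, 0.38 with a stricter gate and 0.11 within shared clusters. Thinning to 1000 UMIs gave 0.32 in LSEC-like, 0.12 in vascular endothelial-like, -0.027 in dendritic-like and 0.046 in cholangiocyte-like cells. Vascular endothelial-like cells gave -0.083 on the scale of all UMIs, 0.0454 with a stricter gate and 0.10 within shared clusters.

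For the mitochondrial sum, main values were 0.44, 0.65, 0.74, 0.37 and 0.26. In that order they were 0.091, 0.25, 0.27, 0.39 and 0.21 at 10%, 0.89, 0.77, 1.18, 0.40 and 0.33 at 50%, and 1.13, 0.87, 1.18, 0.43 and 0.40 with no limit; the limit acts on these genes by construction. A stricter gate gave 0.36, 0.75, 0.76, 0.35 and 0.29. The first 4 types gave 0.22, 0.55, 0.62 and 0.10 with types from clusters, 0.29, 0.59, 0.60 and 0.24 when thinned, and 0.13, 0.78, 0.71 and 0.41 within shared clusters. All UMIs as the scale gave 0.45, 0.59 and 0.68 in the first 3, and subtracting free RNA gave 0.29 in cholangiocyte-like cells.

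For the balance, main values were 0.15, 0.67, 0.60, 0.52 and 0.24. LSEC-like cells turned to -0.24 with types from clusters, -0.21 at 10%, -0.027 when thinned and -0.019 with a stricter gate, and gave 0.018 within shared clusters. The order was 0.27, 0.069, 0.58 and 0.19 for the other 4 types at 10%, 0.66, 0.76, 1.05, 0.57 and 0.31 at 50%, and 0.89, 0.87, 1.05, 0.59 and 0.38 with no limit. Vascular endothelial-like, neutrophil-like and dendritic-like cells gave 0.48, 0.40 and 0.24 from clusters and 0.47, 0.46 and 0.27 when thinned. Dendritic-like cells gave 0.56 within shared clusters, and cholangiocyte-like cells 0.27 less free RNA and 0.28 with a stricter gate.

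Counts past the fold were 14, 6, 11, 5 and 5. Shares of all genes past the fold are given for the main setting only. LSEC-like cells gave 25 with types from clusters, 23 with a stricter gate and 9 at 50%. Vascular endothelial-like cells gave 1 with a stricter gate, and cholangiocyte-like cells 3 at 10%. Thinning left 20, 0, 14, 6 and 3 members with enough UMIs, and 6, 0, 4, 1 and 0 past the fold. Leaving out the limit and comparing within shared clusters were alternatives chosen after seeing the data.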
